A study of Mus musculus with 9 samples.

Results

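Socs1, Ifngr2, Il1rap, Ciita and Bcl6 were described in mouse satellite cells grown in media that differed in their base and in their added cytokines. They are the genes of receptor chains, of a feedback inhibitor and of transcription regulators. Ifngr2, Il1rap, Socs1 and Ciita belong to the pathways of interferon-γ (IFN-γ) and interleukin-1 (IL-1). Bcl6 was taken with them as a transcription regulator, and a place in these pathways was not tested. The 5 genes were chosen by name for these roles, with earlier results of these data known, from the 11148 rows of the deposited table. Each is 1 row. All 5 passed the filter on low values, Ciita only through libraries of the medium in which it was high.

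Satellite cells are the muscle-resident stem cells. Per the labels, they came from limb skeletal muscle of C57/BL6/DBA newborns aged 1-3 days, with males and females pooled, and all cultures grew on dishes coated with collagen. TruSeq libraries were made from total RNA. F10 medium was used at P0 only (1 library, P being the passage), and no serum or FGF (fibroblast growth factor) content is stated for it, so an effect of serum or FGF and one of the medium cannot be told apart there. T cell medium was a 50:50 mixture of T cell medium and F10 with 15% serum, with FGF at 2.5 ng/ml, used at P0, P1, P2 and P15 (4 libraries). Cytokine medium was F10 with 15% serum, FGF at 2.5 ng/ml, 5 ng/ml each of IL-1α and IL-13, and 10 ng/ml each of TNF-α and IFN-γ, at the same passages (4 libraries). T cell and cytokine medium thus differed in their base as well as in the added cytokines, and these effects cannot be told apart. The labels do not name separate animals or cultures for the passages, and each combination of medium and passage has 1 library, so p-values measure only the spread between these libraries.

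IFN-γ binds a receptor built of Ifngr1 and Ifngr2 chains, which carries the kinases JAK1 and JAK2 and passes the signal on to the nucleus. IL-1 binds its own receptor chain, which then pairs with the accessory chain encoded by Il1rap and signals through MyD88 to NF-κB. Target genes of these pathways include their own inhibitors, so a feedback loop forms. Muscle precursor cells respond to IFN-γ by making proteins that they otherwise make little of, among them Ciita, the switch for class II antigen presentation.

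Levels are RPKM, the reads of a gene per kilobase of its model, relative to the depth of the library. The values in the table proved to be whole multiples of 1 read, so reads and depth could be recovered (13.0 to 18.2 M reads in the first of the 2 columns of a library, called run 1). Most row names in the table do not go with their values: names were used for 722 rows (6.48%) in which row position and annotated exons fitted, by a rule chosen after the data were seen. No defining marker of satellite cells, T cells or macrophages was among them, so the labelled cell type could not be checked. The B cell markers Vpreb1 and Igll1 lay between 0 and 0.318 RPKM in all 9 libraries. All 5 genes lie on chromosome 16 (GENCODE vM21 on mm10). The lowest and highest shifts that the fit accepted were -80 and 80 bp for Socs1, Il1rap, Ciita and Bcl6, and -560 and 480 bp for Ifngr2. In the Ifngr2 stretch the best shift was -520 bp. A shift of 0 was not among the accepted ones there, as it lost 7.87 log-likelihood units. In the stretch of Socs1, Il1rap, Ciita and Bcl6 a shift of 0 lost 0 units. Moved by such shifts, the annotated exons of Ifngr2 still overlap at least 62.0% of their own bases, those of Ciita 80.6% and those of the other genes 90.3% to 94.5%. The gene model lengths recovered from the table were 1220 bases for Socs1, 3313 for Ifngr2 and 5254 for Ciita, where the annotation has 2908, 3767 and 9535, and for Il1rap (11360) and Bcl6 (6700) they equal the annotated exon length. Levels can therefore depart from those over all annotated exons, while ratios between libraries use the same bases. In bulk RNA, fewer cells of a type and less RNA per cell cannot be told apart.

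The promoters of genes that answer cytokines often carry short recognition letters for STAT, IRF and NF-κB proteins, so the 250 bases before the start site were read from RefSeq (GRCm38.p6) for the 4 members with an entry. Those of Socs1 and Ifngr2 are shown. They are the members in which the patterns given next had a match, and a link of matches with levels was not tested. Capitals mark every match, on either strand, to 3 letter patterns: the STAT6-type pattern (TTC and GAA with 4 bases between), the IRF pattern (GAAA and GAAA with 2 bases between) and the NF-κB pattern (GGGA and TTTCC with 1 base between). Each sequence runs 5′ to 3′ on the strand of the gene and ends at the base before the start site.
Socs1, chr16:10785537-10785786, minus strand: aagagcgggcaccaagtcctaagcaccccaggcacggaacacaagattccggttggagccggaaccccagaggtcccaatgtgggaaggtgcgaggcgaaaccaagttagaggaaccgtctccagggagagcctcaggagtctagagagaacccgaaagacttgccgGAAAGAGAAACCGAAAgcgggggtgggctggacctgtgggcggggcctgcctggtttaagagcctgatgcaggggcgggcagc
Ifngr2, chr16:91546809-91547058, plus strand: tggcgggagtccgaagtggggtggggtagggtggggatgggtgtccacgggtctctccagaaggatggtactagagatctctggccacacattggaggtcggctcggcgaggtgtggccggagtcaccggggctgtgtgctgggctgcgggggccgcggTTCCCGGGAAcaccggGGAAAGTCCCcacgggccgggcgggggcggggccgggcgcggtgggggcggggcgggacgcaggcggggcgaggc

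In the Socs1 promoter, 2 matches to the IRF pattern overlapped, GAAAGAGAAA at bases -83 to -74 and GAAACCGAAA at -77 to -68, counted from the start site. The IRF pattern occurs in 2.98% of the 32851 RefSeq promoters of this length. The Ifngr2 promoter held a STAT6-type match, TTCCCGGGAA (-91 to -82; 5.85% of promoters), and an NF-κB match, GGAAAGTCCC (-75 to -66; 0.356%). The Il1rap promoter (chr16:26581455-26581704, plus strand) and the 2 Bcl6 promoters held none of the 3 letter patterns in these windows. Ciita was not in the promoter table. A match is a run of letters, and binding was not measured.

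**Figure D1:**
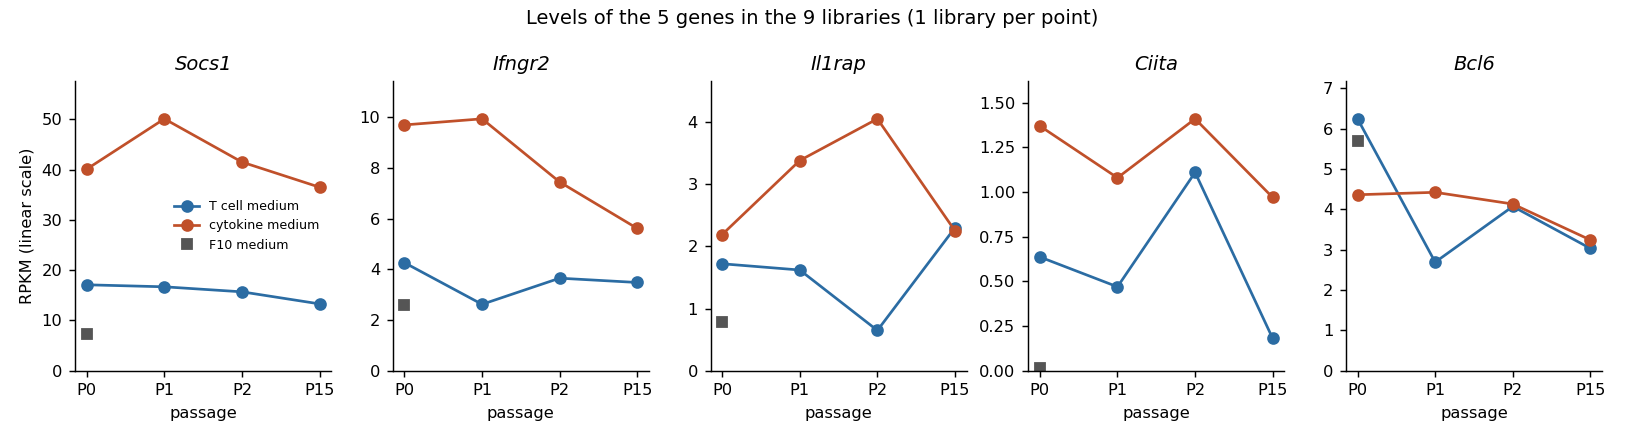
RPKM of each gene (vertical axis, linear, from 0, scaled per gene) at passages P0, P1, P2 and P15 (horizontal axis) in T cell medium (blue circles), cytokine medium (orange circles) and F10 medium (grey square, P0 only). Each point is 1 library. The cytokine points lie above all T cell points for Socs1 and Ifngr2, overlap them for Il1rap and Ciita, and cross them for Bcl6. The share of all rows with separated media was not counted.

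The comparison of cytokine with T cell medium was made over the 4 passages, with passage as a block, in limma on log2(RPKM + 1). This scale understates the change of genes near 0. Of the 5 genes, Socs1, Ifngr2 and Ciita rose in cytokine medium (3 of 5), 0 fell, and Il1rap and Bcl6 did not pass the adjusted threshold of 0.05. Ciita passed the filter on low values only with its cytokine libraries, as given below. Among all 3503 rows tested, 170 were called higher (4.85%) and 175 lower (5.00%). Among the 512 tested rows with usable names these were 38 (7.42%) and 35 (6.84%). The 5 genes were chosen with earlier results known, so setting their count against these shares is not an independent comparison. The median difference of the 5 genes was 0.64, against 0.02 over all rows. At an unadjusted p under 0.05, 4 of the 5 passed, as did 1083 of the 3503 rows. limma voom on the recovered reads, an alternative chosen after the data were seen, called 3 of the 5. The share of all rows in which the media did not overlap was not counted, so separation is given below as description only. Among other genes named below, the media were also separated for Parp14, Parp9, Dtx3l, Batf2, Birc3, Dexi, Greb1l, Leprel1 and 1110004E09Rik. They overlapped for Rtp4, Litaf, Nfkbiz, Casp12, Cd80, Bach1, Rab20, Hunk, Adrbk1, Serac1 and Spice1, and for the neighbours of Ifngr2. For the Mmp genes this was not determined.

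Among the receptor chains, Ifngr2 (ENSMUSG00000022965, chromosome 16, 91547072 to 91565623, plus strand, 8 exons after merging) encodes the signal-transducing chain of the IFN-γ receptor. In T cell medium its level at P0, P1, P2 and P15 was 4.26, 2.62, 3.65 and 3.48 RPKM. In cytokine medium it was 9.69, 9.93, 7.44 and 5.61 RPKM at the same passages. The lowest cytokine library, P15, was above the highest T cell library, P0, and the ratio of that pair was 1.38 (95% counting interval 1.14 to 1.69). Means were 8.17 ± 2.04 RPKM (SD, n = 4) in cytokine medium and 3.50 ± 0.676 (SD, n = 4) in T cell medium. The log2 difference was 1.01 ± 0.43 (SD over 4 passages; SE 0.16; limma adjusted p = 0.0243), higher in 4 of 4 passages. The exact two-sided sign-flip permutation test over the 4 passages gave p = 0.125, the smallest p that 4 pairs allow. Leaving out 1 passage leaves 3 pairs. The call was then lost without P0 (log2 difference 1.00, adjusted p = 0.113), P1 (0.81, 0.0965) or P2 (1.06, 0.0672), and stood without P15 (1.16, 0.00675). The F10 library stood at 2.61 RPKM, which did not differ beyond counting error from T cell medium at P1 (ratio 0.943, 95% interval 0.736 to 1.21).

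The size of the Ifngr2 difference varied between passages. From the reads of run 1, cytokine over T cell medium was 2.35-fold at P0 (95% counting interval 1.98 to 2.80), 3.88-fold at P1 (3.21 to 4.71), 2.12-fold at P2 (1.78 to 2.54) and 1.61-fold at P15 (1.32 to 1.95). The fold was highest at P1, where the T cell library was lowest, and lowest at P15, where the cytokine library was lowest. These intervals, like all intervals here, cover counting error only.

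Ifngr2 lies in a cluster of receptor genes together with Ifnar1 and Ifnar2, the chains of the type I interferon receptor, and Il10rb, a chain shared by receptors of the IL-10 family. Ifnar1 (91485238 to 91507441) ranged from 5.90 to 8.51 RPKM over the 9 libraries, Ifnar2 (91372783 to 91405589) from 2.60 to 4.99 and Il10rb (91406164 to 91425834) from 1.20 to 2.18. Their log2 differences between cytokine and T cell medium were 0.16 (SE 0.09, adjusted p = 0.281), 0.11 (SE 0.06, 0.296) and 0.06 (SE 0.10, 0.726) in limma. In all 3 neighbours the media overlapped. Of the 24 receptor chain genes listed for the added cytokines and their relatives, 17 were in the table and 5 had usable names. Of these 5, Ifngr2 rose and 0 fell, with a median of 0.16 (7.42% of the 512 tested rows with usable names were called higher). The difference between Ifngr2 and its neighbours was not itself tested. The other receptor chains, Ifngr1 and the IL-13 and TNF receptors among them, were not analysed here.

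**Figure D2:**
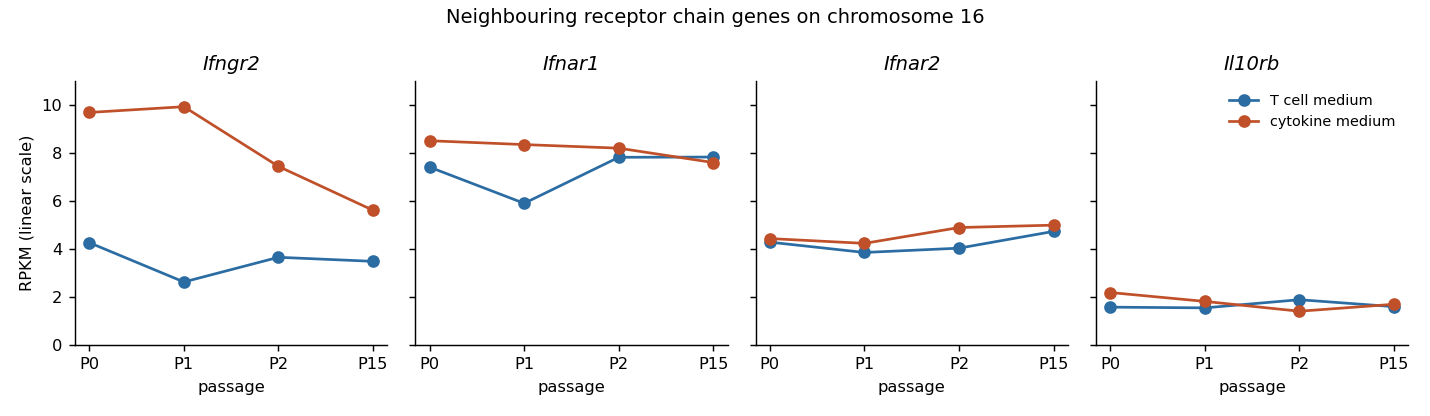
RPKM (vertical axis, linear, same scale in all panels) of Ifngr2, Ifnar1, Ifnar2 and Il10rb at passages P0, P1, P2 and P15 (horizontal axis) in T cell medium (blue) and cytokine medium (orange). Each point is 1 library. The media are separated for Ifngr2, at 5.61 to 9.93 RPKM against 2.62 to 4.26, and overlap for the other genes.

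Il1rap (ENSMUSG00000022514, 26581704 to 26730117, plus strand, 14 exons after merging) encodes the accessory chain without which the IL-1 receptor does not signal. In T cell medium it stood at 1.72, 1.62, 0.649 and 2.30 RPKM at P0, P1, P2 and P15. In cytokine medium it stood at 2.19, 3.38, 4.05 and 2.25 RPKM. The T cell library was lowest at P2, where the cytokine library was highest, and at P15 the media were level. Means were 2.97 ± 0.904 RPKM in cytokine and 1.57 ± 0.687 in T cell medium (SD, n = 4 each). The log2 difference was 0.64 ± 0.72 (SE 0.25; limma adjusted p = 0.140), higher in 3 of 4 passages, and the exact sign-flip permutation p was 0.250. The difference between media was thus within the spread over passages.

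By passage, the folds of Il1rap ranged more widely than those of the other 4 genes. Cytokine over T cell medium was 1.28 at P0 (95% counting interval 1.09 to 1.51), 2.17 at P1 (1.89 to 2.50), 6.17 at P2 (5.08 to 7.56) and 0.984 at P15 (0.849 to 1.14). The interval at P15 included 1, and those at P0, P1 and P2 lay above it. The log2 difference of Il1rap depended on single passages: it was 0.32 without P2 (limma adjusted p = 0.279) and 0.86 without P15 (0.0621). In the order of levels, the F10 library (0.778 RPKM) and T cell medium at P2 were lowest and did not differ beyond counting error (ratio 1.17, 95% interval 0.905 to 1.52). Of the exon bases of Il1rap, 4.86% are shared with another gene model, Gm20319, and reads of the pair cannot be told apart there.

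**Figure D3:**
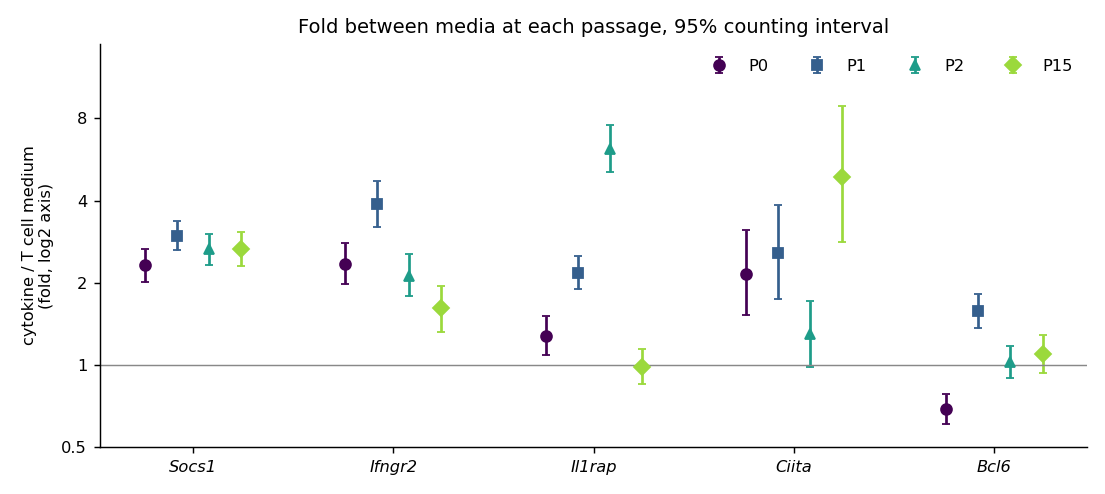
Cytokine over T cell medium (vertical axis, fold on a log2 axis, from run 1 reads) for each gene (horizontal axis) at P0, P1, P2 and P15 (circle, square, triangle and diamond). Bars are 95% counting intervals and the grey line marks a fold of 1. Socs1 folds lie between 2.32 and 2.97, while those of Il1rap run from 0.984 to 6.17 and those of Bcl6 lie on both sides of 1.

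Socs1 (ENSMUSG00000038037, 10782240 to 10785536, minus strand, 2 exons after merging) encodes the suppressor of cytokine signalling that binds and inhibits JAK kinases, a feedback inhibitor of the IFN-γ pathway. It had the highest RPKM of the 5 genes in all 9 libraries. In T cell medium it stood at 17.1, 16.7, 15.7 and 13.3 RPKM at P0, P1, P2 and P15. In cytokine medium it stood at 40.1, 50.1, 41.5 and 36.5 RPKM. All 4 cytokine libraries lay above all 4 T cell libraries, and all 8 lay above the F10 library at 7.38 RPKM. Within T cell medium, libraries next to each other in level did not differ beyond counting error. For P2 over P15 the interval reached its bound (ratio 1.18, 95% counting interval 1.000 to 1.39). Libraries further apart in level within this medium were not compared.

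The Socs1 means were 42.1 ± 5.76 RPKM in cytokine and 15.7 ± 1.72 in T cell medium (SD, n = 4 each). The log2 difference was 1.36 ± 0.14 (SE 0.08; limma adjusted p = 0.00187), higher in 4 of 4 passages, and the exact sign-flip permutation p was 0.125. Of the 5 genes its difference was the largest on the log2 scale and had the smallest spread over passages. The fold was 2.32 at P0 (95% counting interval 2.02 to 2.66), 2.97 at P1 (2.63 to 3.37), 2.65 at P2 (2.33 to 3.02) and 2.66 at P15 (2.30 to 3.08). The intervals of the 4 folds all overlapped. The adjusted p stayed between 0.00128 and 0.0299 with each passage left out in turn. With no filter on low values, when no row of the table was called, it was 0.0532.

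Socs1 rose beside the other feedback gene with a usable name, Nfkbiz, an IκB family protein of the nucleus (log2 difference 0.42, SE 0.09, limma adjusted p = 0.0434). The list of feedback inhibitors had 19 genes, of which 17 were in the table and 2 could be used by name. Both rose (median 0.89). Among 21 interferon-induced genes, 10 were in the table and 5 could be used, and 4 of the 5 rose, with a median of 1.07. Parp14, an ADP-ribosyltransferase, differed by 1.81 (SE 0.12, adjusted p = 0.00187) and Batf2, a transcription factor, by 2.05 (SE 0.22, 0.0134). Parp9 and Dtx3l, which encode partner proteins, differed by 1.04 (SE 0.07, 0.00187) and 1.07 (SE 0.10, 0.00553). Rtp4 differed by 0.51 (SE 0.15, 0.0721) and did not pass. Of the 512 tested rows with usable names, 7.42% were called higher. The feedback and interferon lists were made with earlier results of this table known, so their direction is not independent evidence.

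Among the transcription regulators, Ciita (ENSMUSG00000022504, 10480059 to 10528418, plus strand, 24 exons after merging) encodes the coactivator that switches on the class II antigen presentation genes. It was the gene closest to 0. The F10 library held 1 read in run 1, or 0.0135 RPKM. In T cell medium the level was 0.637, 0.470, 1.11 and 0.181 RPKM at P0, P1, P2 and P15, from 46, 37, 96 and 17 reads. In cytokine medium it was 1.37, 1.08, 1.41 and 0.970 RPKM, from 112, 108, 120 and 68 reads. The T cell library at P2 lay among the cytokine libraries, and that at P15 was the lowest of the 8. Outside cytokine medium only T cell medium at P2 reached the 1 RPKM of the filter, which takes 2 libraries. Ciita was thus tested only because of its cytokine libraries, so its call is not independent of the filter. In the order of levels, the 5 highest libraries (the 4 in cytokine medium and P2 in T cell medium) did not differ beyond counting error from their neighbours. The step down to T cell medium at P0 did (ratio 1.53, 95% counting interval 1.04 to 2.27).

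The Ciita means were 1.21 ± 0.216 RPKM in cytokine and 0.600 ± 0.390 in T cell medium (SD, n = 4 each), a wider relative spread in T cell medium (65.0% of the mean against 17.9%). The log2(RPKM + 1) difference was 0.49 ± 0.23 (SE 0.10; limma adjusted p = 0.0399), higher in 4 of 4 passages, with an exact sign-flip permutation p of 0.125. On the recovered reads the log2 difference was 1.02 (SE 0.26; limma voom adjusted p = 0.0375). The fold was 2.16 at P0 (95% counting interval 1.52 to 3.11), 2.57 at P1 (1.75 to 3.84), 1.30 at P2 (0.984 to 1.71) and 4.88 at P15 (2.83 to 8.85). The call was lost without the passage block (adjusted p = 0.131) and without P0 (0.149), P1 (0.149) or P2 (0.0621).

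Of the Ciita exon bases, 3.45% are shared with the neighbour Dexi, and the sources used here do not give the strand setting of the counting. Dexi stood at 4.0 RPKM (203 reads) in the F10 library, in which Ciita had 1 read. Dexi itself rose in cytokine medium by 0.38 ± 0.07 (SE 0.07; limma adjusted p = 0.0303), from 5.63 ± 0.313 to 7.59 ± 0.200 RPKM (SD, n = 4 each). Its folds between media were 1.25 to 1.42 over the passages. Of 17 genes listed for class II presentation and costimulation, 8 were in the table and 2 could be used by name. Besides Ciita this was Cd80, a costimulatory ligand of T cells, at -0.54 (SE 0.14, adjusted p = 0.0605), which did not pass. The class II genes that Ciita is known to switch on were not analysed here.

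Bcl6 (ENSMUSG00000022508, 23965052 to 23988852, minus strand, 8 exons after merging) encodes a zinc finger repressor best known from germinal centre B cells. It stood at 6.24 RPKM at P0 in T cell medium, then at 2.69, 4.07 and 3.03 at P1, P2 and P15. In cytokine medium it stood at 4.36, 4.42, 4.13 and 3.24 RPKM. The media overlapped, and T cell medium held both the highest and the lowest of the 8 libraries. From P1, P0 and P2 in cytokine medium down to P2 in T cell medium, neighbours in the order did not differ beyond counting error. Means were 4.04 ± 0.543 RPKM in cytokine and 4.01 ± 1.60 in T cell medium (SD, n = 4 each). The log2 difference was 0.05 ± 0.40 (SE 0.15; limma adjusted p = 0.832) and the exact sign-flip permutation p was 0.625.

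The direction for Bcl6 differed between passages. Cytokine over T cell medium was 0.688 at P0 (95% counting interval 0.606 to 0.781) and 1.58 at P1 (1.37 to 1.82), and the intervals at P2 (1.02, 0.893 to 1.17) and P15 (1.10, 0.930 to 1.29) included 1. Without P1 the log2 difference turned to -0.11 (limma adjusted p = 0.595). Of 11 listed partners and antagonists of Bcl6, 10 were in the table and 2 could be used, Bcl6 itself and Bach1, a repressor that also carries a BTB domain, at -0.19 (SE 0.07, adjusted p = 0.142). Neither passed in limma.

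At P0, both supplemented media were compared with the F10 library. Each group had 1 library, so no test was made, a gene was counted where it was at least 2-fold apart on the log2(RPKM + 1) scale, and both comparisons share the F10 library. In cytokine medium 3 of the 5 genes passed this bound upwards (2.14% of all 3503 rows, and 1.57% were at least 2-fold lower), and in T cell medium 1 of the 5 (1.51% of rows, and 0.514% lower). Among the rows with usable names the shares were 4.10% higher and 2.73% lower in cytokine medium, and 2.73% higher and 1.17% lower in T cell medium. None of the 5 was at least 2-fold lower in either. The counts depend on the pseudocount: at 0.1, 4 of the 5 were at least 2-fold higher in cytokine medium (115 of the 3503 rows) and 3 of the 5 in T cell medium (104 rows), with Il1rap at 1.39 and 1.05 on the log2 scale in place of 0.85 and 0.61.

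The Socs1 level went from 7.38 RPKM in F10 to 17.1 in T cell and 40.1 in cytokine medium, folds of 2.47 (95% counting interval 2.0 to 3.06) and 5.72 (4.75 to 6.94). Ifngr2 went from 2.61 to 4.26 and 9.69 RPKM, folds of 1.53 (1.22 to 1.93) and 3.60 (2.96 to 4.39). For Il1rap the step from 0.778 RPKM to 1.72 in T cell medium (2.26-fold, 1.82 to 2.82) was larger than that from T cell to cytokine medium, at 2.19 RPKM (2.90-fold over F10, 2.36 to 3.57). The order F10, T cell, cytokine medium thus held for these 3 genes at P0, with intervals that exclude 1.

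Ciita went from 1 read in the F10 library to 46 reads in T cell medium (50.7-fold, 95% counting interval 8.67 to 2047) and 112 reads in cytokine medium (110-fold, 19.3 to 4367). The upper bounds are wide because the F10 value rests on 1 read. Parp14, for comparison, went from 12 reads in F10 to 50.8-fold in T cell medium (28.9 to 99.0) and 234-fold in cytokine medium (134 to 453). Bcl6 was the exception to the order. It stood at 5.68 RPKM in F10 and 6.24 in T cell medium (1.10-fold, 0.975 to 1.23), and was lower in cytokine medium at 4.36 RPKM (0.755-fold, 0.666 to 0.857). Only 1 of the 8 other libraries was above the F10 library for Bcl6, against 8 of 8 for Socs1, Ifngr2 and Ciita and 7 of 8 for Il1rap.

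**Figure D4:**
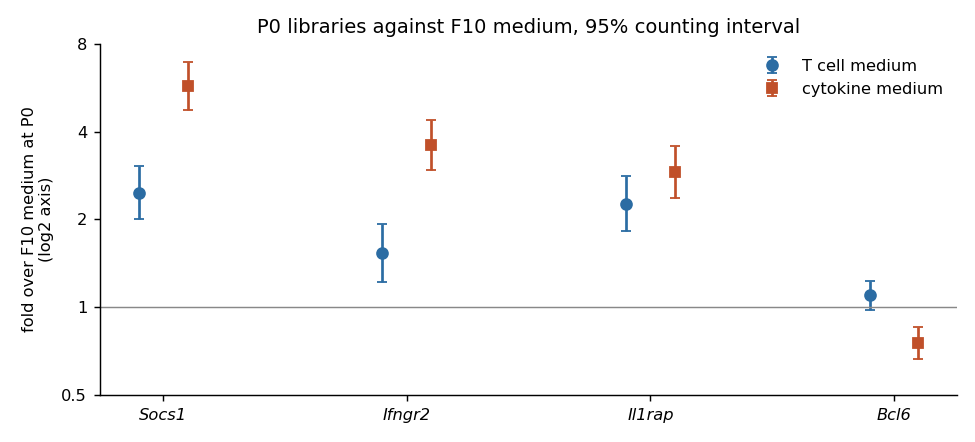
Fold over the F10 library at P0 (vertical axis, log2 axis, from run 1 reads) for Socs1, Ifngr2, Il1rap and Bcl6 (horizontal axis) in T cell medium (blue circles) and cytokine medium (orange squares). Bars are 95% counting intervals, and Ciita is left out because its F10 value rests on 1 read. The highest fold is that of Socs1 in cytokine medium, 5.72, and Bcl6 in cytokine medium is the only point below 1, at 0.755.

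Long culture was described by setting P15, with 1 library per medium, against P0 to P2. The fit over both media had a term for medium and no block for passage. Libraries of the same passage thus counted as independent although they correlated, and P15 is a single passage. Its p-values do not allow for this. Over both media, 0 of the 5 genes changed in limma (0.228% of all rows were called higher and 0.257% lower, and 0.195% and 0.391% of rows with usable names), 2 of the 5 had an unadjusted p under 0.05 (667 of the 3503 rows did), and voom called 0. Socs1 at P15 lay below its early range in both media, at 13.3 against 15.7 to 17.1 RPKM in T cell medium and 36.5 against 40.1 to 50.1 in cytokine medium (log2 difference -0.27, adjusted p = 0.210). Ciita at P15 was also below its early range in both, at 0.181 against 0.470 to 1.11 RPKM and 0.970 against 1.08 to 1.41 (-0.38, adjusted p = 0.228). Ifngr2 (-0.29, 0.421) and Bcl6 (-0.34, 0.404) were below the early range in cytokine medium and inside it in T cell medium. Il1rap was above its early range in T cell medium, at 2.30 against 0.649 to 1.72 RPKM, and inside it in cytokine medium (0.10, 0.875). The share of all rows outside their early range was not counted. These positions are therefore a description, and a late decline particular to these genes cannot be read from them.

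Whether the difference between media at P15 departed from that at P0 to P2 was tested as an interaction. None of the 5 passed in limma (0 of 5, also at an unadjusted p under 0.05, against 0.0571% of rows called higher and 0% lower). The interaction was -0.60 for Ifngr2 (SE 0.29, adjusted p = 0.766), -0.89 for Il1rap (SE 0.48, 0.805), 0.33 for Ciita (SE 0.22, 0.830), 0.04 for Socs1 (SE 0.20, 0.987) and 0.03 for Bcl6 (SE 0.36, 0.994). On the recovered reads voom called 0 of 5 (28 rows in all), and 2 of 5 had an unadjusted p under 0.05 (254 rows in all). These were Il1rap at -1.35 (adjusted p = 0.672) and Ciita at 1.41 (adjusted p = 0.611).

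Likeness of pattern was measured as Pearson's r of log2(RPKM + 1) over the 9 libraries, which share media and passages, so r is a description. Among the 5 genes the closest pair was Socs1 and Ifngr2 (r = 0.92), followed by Socs1 and Ciita (0.86). For Bcl6, r with the other 4 lay between -0.21 and 0.13, and between 0.03 and 0.41 without the F10 library. Among the 511 other tested rows with usable names, the patterns most like Socs1 were those of Dexi (0.98), Greb1l (0.96) and Parp14 (0.95). Closest to Ifngr2 were Birc3, an inhibitor of apoptosis (0.98), Leprel1 (0.94) and Socs1 (0.92). Closest to Il1rap were Rab20, a small GTPase (0.93), the collagenase gene Mmp13 (0.90) and 1110004E09Rik (0.90). Closest to Ciita were the kinase gene Hunk (0.96), Dexi (0.92) and Parp14 (0.86), and closest to Bcl6 were the kinase gene Adrbk1 (0.92), Serac1 (0.87) and Spice1 (0.86). Without the F10 library Socs1 and Ciita were at 0.76, and Socs1 and Ifngr2 still at 0.92.

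Genes induced by TNF and IL-1 were taken as a further list, since Il1rap belongs to that arm. Of 17 genes, 11 were in the table and 7 could be used, and 4 rose in cytokine against T cell medium, with 0 lower and a median of 1.18. Of the 512 tested rows with usable names, 7.42% were called higher. Nfkbiz is also in the feedback list. The TNF and IL-1 list too was made with earlier results known, so its direction is not independent evidence. Birc3 rose by 1.18 (SE 0.21, limma adjusted p = 0.0303), Litaf by 0.78 (SE 0.12, 0.0238), the stromelysin gene Mmp3 by 2.01 (SE 0.46, 0.0450) and Nfkbiz as given above. Mmp10 was at 2.82 (SE 0.77, 0.0625), Mmp13 at 2.28 (SE 0.80, 0.110) and Casp12 at 0.08 (SE 0.13, 0.712), and these did not pass.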

How the data were processed

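Total RNA was sequenced in 9 libraries. The deposited table holds RPKM values that the authors made from their reads, per the file headers, in 2 columns per library. The submitters' processing notes name TopHat2 2.0.1, HTSeq 0.5.4p2 and the build mm10, but not their roles. Annotation, strand setting and the scaling of the RPKM: not given in the sources used here.

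Reads were recovered from the RPKM, which were whole multiples of 1 read within 0.001 read in 10931 of 10934 rows. The 2 columns of a library differed by less than the sampling noise (chi-square per row 0.457 to 0.487, against 5.73 to 44.0 between libraries). They were averaged and counted as 1 sample. Counting intervals are exact conditional binomial intervals on the reads of the first column (run 1).

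Identifiers were matched to GENCODE vM21 (11105 of 11148), and a stepwise shift between row position and annotated exons was fitted per chromosome (grid 40 bp, up to 8 Mb, cost 9 log-likelihood units per change). A name was used where every shift within 2 units of the best was at most 1000 bp, leaving out 3 rows beside each change. This rule was tested on simulated data.

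Rows with at least 1 RPKM in at least 2 libraries were tested with limma 3.58.1 (R 4.3.3, eBayes with trend) on log2(RPKM + 1), with Benjamini-Hochberg adjustment over all 3503 rows and a threshold of 0.05. Both scripts were tested on simulated data. The medium comparison had passage as a block. Deviations of libraries of the same passage correlated at 0.70, 0.33, 0.15 and 0.46 for P0, P1, P2 and P15. The highest correlations with another passage were 0.06, 0.08, 0.10 and 0.06. Passage was therefore taken to pair the libraries, though at P2 the values were close. Single-gene permutation tests took all sign flips of the passage differences, and the counting intervals used scipy 1.17.1. The genes named were the 5 members, usable rows of the gene lists and of cell type markers, and for each member the 3 usable rows with the highest r. The members, lists and letter patterns were chosen with earlier results of these data known. Some items are not reported here.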

Additional observations from a re-analysis of the deposited data

How the results depend on the processing

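No direction of a called gene reversed under any alternative. The call for cytokine against T cell medium was lost with no filter on low values for Socs1 (log2 difference 1.36, adjusted p = 0.0532), Ifngr2 (1.01, 0.224) and Ciita (0.49, 0.232), when 0 rows were called (1686 at an unadjusted p under 0.05) against 345 otherwise. Without the replicate block 64 rows were called, and Ciita was at 0.49 (adjusted p = 0.131). With each passage left out in turn, Ifngr2 ran from 0.81 to 1.16 (adjusted p 0.00675 to 0.113), Ciita from 0.41 to 0.59 (0.0495 to 0.149) and the rows called from 10 to 547. The rows called were 221 among rows with a mean of at least 5 RPKM, 76 among usable names alone (fewer rows tested) and 546 by limma voom on the recovered reads. For the P15 interaction, 2 rows were called. The number was 9 at a pseudocount of 0.1, 0 with no filter (689 unadjusted), 5 among rows with a mean of at least 5 RPKM, 12 after rescaling libraries to 1 sum, 1 after quantile normalization, 10 from run 1 alone, 0 without the replicate block (117 unadjusted), 28 by voom, and 0 to 26 with a passage left out. For P15 over both media, 17 rows were called, 2 among rows with a mean of at least 5 RPKM, 0 among usable names alone (94 unadjusted), and 1 to 31 with a passage left out. The rows at least 2-fold from F10 medium were 130 for cytokine and 71 for T cell medium, 242 and 151 at a pseudocount of 0.1, and 66 and 45 among rows with a mean of at least 5 RPKM. At a pseudocount of 0.1 the log2 difference from F10 of Ciita was 3.70 in cytokine and 2.70 in T cell medium, against 1.23 and 0.69. For the changes that do not come from fewer rows or libraries, the cause was not tested. Rescaling shifted the median of all rows by up to 0.10. Ciita, with 1 to 120 reads, is limited by depth.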
